A study of Mus musculus with 6 samples.

Results

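The TRIM family of ubiquitin ligases was examined in whole mouse tumours 12 h into a therapy named MS-DF-MS. The family was defined by symbol: 60 rows of the count table were named Trim followed by a number and at most 1 letter, and the 56 with a summed count of at least 15 over the 6 libraries were taken as members, of 28368 genes in all. The rule used the summed level and not the groups. The least covered member was Trim55, with a summed count of 15. The 4 rows just outside the rule were Trim38 (14), Trim75 (12), Trim54 (11) and Trim43a (11). Polyadenylated RNA was measured in 3 tumours from treated mice and 3 from mice that received nothing, and the labels give no strain, age or tumour type. The series title describes implanted depots releasing a STING agonist and then an inducer of apoptosis. No group carried an empty depot, so an effect of the drugs and one of the implant cannot be told apart. Whether each library came from its own animal is not said in the labels, so a p-value here reflects only how much these samples vary, and part of that may be technical. In whole tumours, fewer cells of a type and less RNA per cell cannot be told apart.

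TRIM proteins are built from a RING finger, 1 or more B-boxes and a coiled coil, followed in many members by a PRY-SPRY domain that binds the target. The RING finger passes ubiquitin to target proteins. Several members are produced in response to interferon and act on the sensing of viral nucleic acids: TRIM25 modifies the RNA sensor RIG-I, TRIM56 has been reported to act on STING and on the DNA sensor cGAS, and TRIM5 and its relatives recognise retroviral capsids. Others repress transcription, bind microtubules or work in muscle.

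The libraries held between 57017043 and 66634551 counts, 84530 to 117318 of them on members. Transcripts of pigment cells were abundant in both groups, with a summed level over 8 markers of 22600 to 24590 CPM (counts scaled to library size) in treated and 22010 to 24290 CPM in control libraries. On the first principal component of all genes treated 3 had a score of 72.9, and the 5 other libraries had scores from -37.9 to 13.3. Treated 1 stood apart in 10 skin markers, which summed to 106.4 CPM there and to 1.29 to 2.44 CPM in each other library. Neutrophil markers summed to 57.5, 19.2 and 5.59 CPM in treated 1, 2 and 3 and to 2.81 to 6.24 CPM in controls. Endothelial markers ran from 428.2 to 456.2 CPM in treated and from 337.0 to 356.4 CPM in control libraries.

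Of the 56 members, 52 passed the filter on low counts and were tested with edgeR's quasi-likelihood test. At a Benjamini-Hochberg adjusted p under 0.05 over all 18049 genes tested, 10 members rose and 1 fell. Over all genes 1.36% rose and 0.249% fell. The rises lay in 2 of the role lists: 5 in the TRIM cluster of chromosome 7 (Trim34a, Trim30d, Trim12c, Trim12a and Trim30a) and 5 among regulators of nucleic acid sensing (Trim25, Trim26, Trim21, Trim56 and Trim14). The fall was that of Trim2, a member with NHL repeats. The other 41 did not pass the threshold, and their log2 fold changes ran from -1.001 (Trim72) to 4.77 (Trim30c), the 2 ends resting on few counts.

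**Figure D1:**
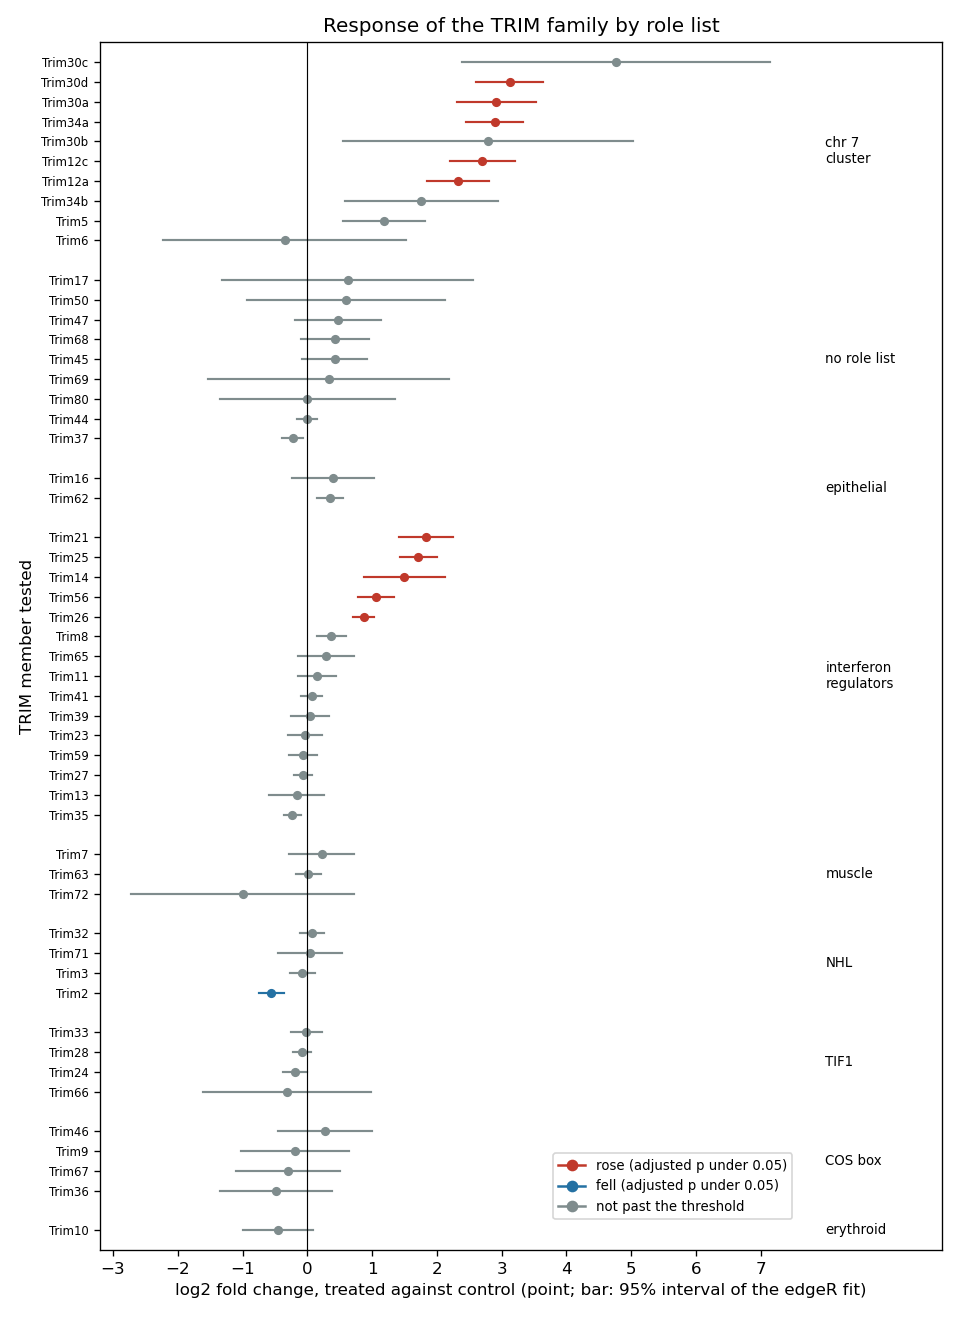
Log2 fold change of each of the 52 members tested, treated against control (horizontal axis), with the 95% interval of the edgeR fit, grouped by role list on the vertical axis. The 10 members that rose (red) lie in the chromosome 7 cluster and among the interferon regulators, and Trim2 (blue) is the 1 that fell.

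The median log2 fold change was 0.188 over the 52 members and -0.003 over all genes tested. Over the 41 members that did not pass the threshold it was 0.037. The 3 treated libraries lay above all controls for 17 members and below them for 4, where 12% and 11.2% of all genes did so. These counts are over the members that passed the filter, which asked for 0.155 CPM in at least 3 libraries. Of the 52, 45 met it in both groups, 5 in the treated group alone (Trim30c, Trim34b, Trim30b, Trim50 and Trim69) and Trim72 in the control group alone. Trim6 met it in neither group by itself.

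Levels between genes are compared here in FPKM, the authors' fragment values scaled by gene length and library size. Trim28, the corepressor that joins KRAB zinc finger proteins to silencing complexes, had the highest level in both groups, at 65.0 ± 1.68 FPKM in treated and 69.0 ± 3.73 FPKM in control tumours (SD, n = 3 each). Trim35 and Trim44 followed in controls at 26.4 ± 0.772 and 23.3 ± 0.703 FPKM; Trim44 is named after its level was seen. Trim30a ranked 19 of the 56 members in controls, at 3.42 ± 1.11 FPKM, and 2 in treated tumours, at 25.7 ± 6.09 FPKM. The treated means of Trim30a, Trim44 (23.0 ± 1.59) and Trim35 (22.4 ± 0.490) lay within the SD of Trim30a, so their order is not resolved. Summed over all members, the family stood at 343.7, 331.4 and 316.5 FPKM in treated 1, 2 and 3 and at 265.9, 269.2 and 274.5 FPKM in controls 1, 2 and 3. Every treated sum was above every control sum. The 10 members that rose made up 98.4, 95.4 and 73.4 FPKM of the sums in treated 1, 2 and 3. In controls 1, 2 and 3 they made up 20.9, 22.1 and 24.1 FPKM, so the higher family sum does not describe the other members. In control tumours 9 members had a mean of at least 10 FPKM and 29 of at least 1 FPKM, and in treated tumours 10 and 29.

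**Figure D2:**
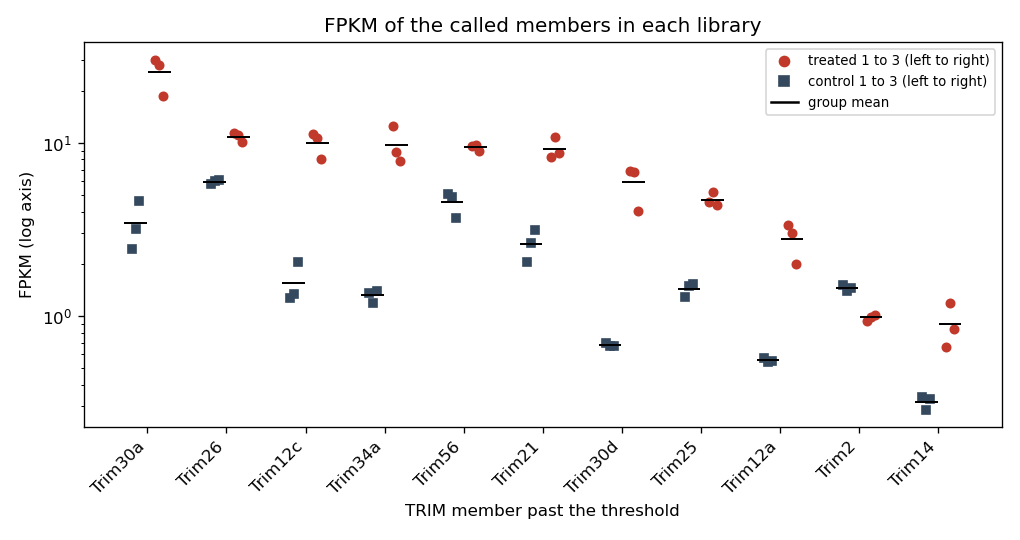
FPKM (vertical log axis) of the 11 members past the threshold in each of the 6 libraries, with circles for treated, squares for control and bars for group means. The groups do not overlap for any of them, which is fixed in part by their having been called. Trim30a has the highest treated mean, 25.7 FPKM.

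The cluster of TRIM genes lies on chromosome 7 from 104218793 to 104507849, a span of 289.0 kb with 10 members and 6 other rows, none of which had a summed count above 244. Trim5, Trim12a and Trim12c are the mouse relatives of the retroviral restriction factor TRIM5, Trim34a and Trim34b those of TRIM34, and the Trim30 genes form a group that expanded in rodents. Of the 10 members, all tested, 5 rose and none fell, where 1.36% of all genes rose. In 9 the treated libraries lay above all controls, where 12% of all genes did so, and the exception was Trim6. Of these 9, Trim30b, Trim30c and Trim34b passed the filter through the treated group alone, which favours such a separation, so their place in this count supports nothing.

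Promoter stretches of 5 members of the cluster that rose, and of Trim5, which did not pass the threshold, are shown because they hold a pair of GAAA repeats. Interferon-stimulated response elements, to which the interferon-activated factor ISGF3 and interferon regulatory factors bind, have such a pair at their core. The letters searched were GAAA, any 2 bases and GAAA again, on both strands, in windows of 300 bases, from 250 before to 50 after a gene start in RefSeq (GRCm38.p6), which 42 of the 56 members had. The letters were found in 9 of the 42 (21.4%), in 7 of 9 members that rose and had a window (77.8%), in 1 of 32 that passed no test or were not tested (3.12%), and in Trim2. Of all 27025 genes with a window 3.99% held them, and of the 185 genes with a window among all that rose, 25.4%. A match describes letters and is not shown to be a binding site. The stretches below are the matches of the cluster with 25 bases on each side, read 5′ to 3′ on the gene's strand. Capitals mark the match, which in all 6 genes lay on the other strand and so reads TTTC, 2 bases and TTTC here.
Trim5, chr7:104288121-104288180, minus strand: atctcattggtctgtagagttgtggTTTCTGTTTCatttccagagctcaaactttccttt
Trim12a, chr7:104315451-104315510, minus strand: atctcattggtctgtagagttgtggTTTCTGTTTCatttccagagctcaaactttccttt
Trim12c, chr7:104353344-104353403, minus strand: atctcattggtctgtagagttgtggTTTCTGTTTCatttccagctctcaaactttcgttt
Trim30a, chr7:104465195-104465254, minus strand: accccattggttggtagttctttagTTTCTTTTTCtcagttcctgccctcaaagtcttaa
Trim30d, chr7:104507856-104507915, minus strand: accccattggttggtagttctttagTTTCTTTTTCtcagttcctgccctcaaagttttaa
Trim34a, chr7:104244442-104244501, plus strand: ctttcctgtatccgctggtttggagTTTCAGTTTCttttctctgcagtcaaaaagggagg

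The 60 bases of Trim5 and Trim12a were identical, those of Trim12c differed from them at 3 positions, and those of Trim30a and Trim30d differed at 1. These are copies within gene families, so the matches are not independent of each other. Over the full windows Trim30a and Trim30d had 92.3% identical bases in a global alignment and Trim12c and Trim5 87.7%. The matches started between 49 bases before the gene start (Trim5) and 10 bases after it (Trim12a and Trim34a). A second start of Trim30a, farther along the gene, also held the letters. The windows of Trim6, Trim30b, Trim30c and Trim34b did not hold them.

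Trim30a (ENSMUSG00000030921, chromosome 7 from 104409025 to 104465193), whose product has been described to restrain Toll-like receptor signalling and STING, was the most abundant member of the cluster. It stood at 139.0, 133.6 and 86.5 CPM in treated 1, 2 and 3 and at 11.3, 14.8 and 21.4 CPM in controls 1, 2 and 3. The lowest treated library, treated 3, was above the highest control. Its log2 fold change was 2.92 ± 0.27 (SE, 95% interval 2.30 to 3.53, edgeR adjusted p = 0.00153), a 7.55-fold rise.

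Trim30d, its neighbour, stood at 28.9, 29.5 and 17.1 CPM in treated and at 2.95, 2.84 and 2.86 CPM in control libraries. Controls were within a narrow range and treated 3 was again the lowest of the treated. It rose 8.72-fold (log2 fold change 3.12 ± 0.22, 95% interval 2.61 to 3.64, edgeR adjusted p = 0.000459).

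Trim34a had 36.5, 26.3 and 22.9 CPM in treated and 3.96, 3.51 and 4.09 CPM in control libraries and rose 7.42-fold (log2 fold change 2.89 ± 0.19, edgeR adjusted p = 0.000348), with the smallest p of the family. Trim12c had 47.0, 46.1 and 33.8 CPM against 5.34, 5.61 and 8.63 CPM and rose 6.49-fold (2.70 ± 0.22, edgeR adjusted p = 0.000829). Trim12a had 21.6, 20.1 and 12.9 CPM against 3.74, 3.56 and 3.63 CPM (2.32 ± 0.21, edgeR adjusted p = 0.00127). In all 3 genes treated 3 was the lowest treated library and the groups did not overlap. The 95% intervals of the 5 rises of the cluster overlapped each other, from 1.85 at the low end of Trim12a to 3.64 at the high end of Trim30d.

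The 5 other members of the cluster had lower counts. Trim5, whose stretch of promoter equals that of Trim12a, had 190, 172 and 131 counts in treated and 58, 74 and 73 in control libraries (log2 fold change 1.18 ± 0.27, 95% interval 0.552 to 1.81, edgeR adjusted p = 0.0914). Trim30c had 54, 157 and 23 counts in treated and 5, 3 and 0 in control libraries (4.77 ± 1.03, edgeR adjusted p = 0.0749). Without treated 3 Trim30c passed the threshold (edgeR adjusted p = 0.0371, 5.76e-05 to 0.299 over its alternatives).

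Trim30b had 131, 60 and 37 counts in treated and 12, 20 and 0 in control libraries (2.78 ± 0.97, edgeR adjusted p = 0.221). Trim34b had 76, 34 and 52 against 21, 9 and 15 counts (1.76 ± 0.51, edgeR adjusted p = 0.159). The groups did not overlap in these 4 genes, and Trim30b, Trim30c and Trim34b passed the filter through the treated group alone. Trim6, at the edge of the cluster, had 8, 19 and 6 against 6, 10 and 23 counts (-0.35 ± 0.81, 95% interval -2.23 to 1.53), a range too wide to tell a rise from a fall.

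**Figure D3:**
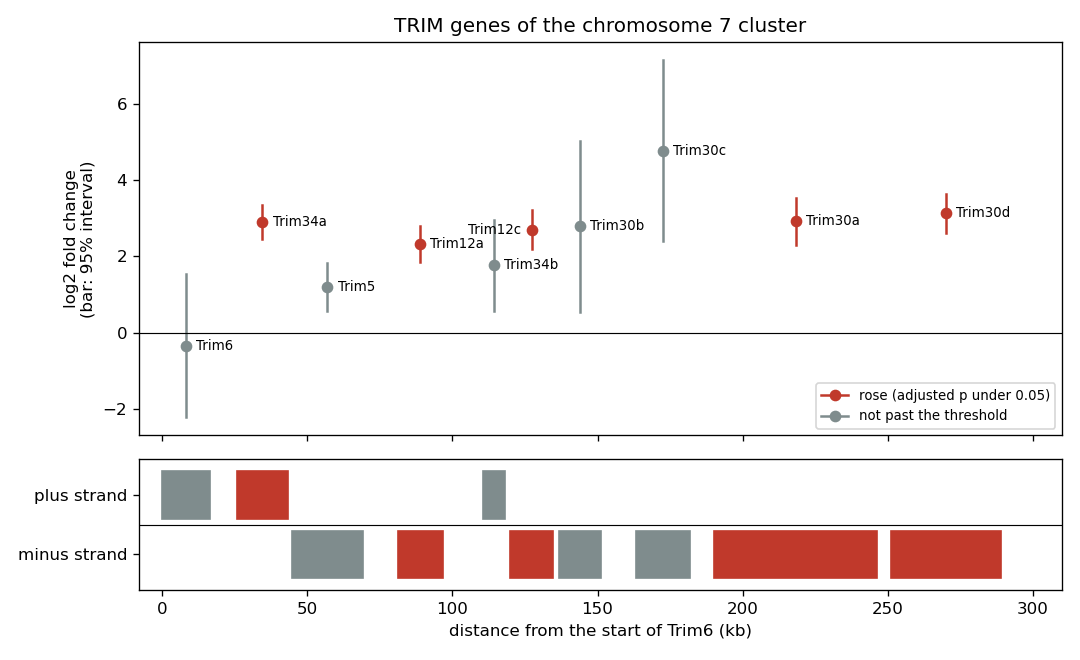
Log2 fold change with its 95% interval (top, vertical axis) and extent by strand (bottom) of the 10 TRIM genes of the chromosome 7 cluster, against the distance from the start of Trim6 in kb (horizontal axis). The 5 genes that rose (red) are interspersed with genes that did not pass the threshold (grey), Trim30a and Trim30d are neighbours at the right edge, and Trim6 at the left edge is the 1 gene below 0.

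Near-identical copies can share reads, and how the authors assigned such reads is not given in the sources used here. In GENCODE M21 transcripts, 3.24% of the stretches of 150 bases (the read length) of Trim30a and 3.23% of those of Trim30d occurred in each other's transcripts. The share was 11.6% for Trim34b and 8.06% for Trim34a, 3.29% for Trim5, 2.54% for Trim12c and 0.382% for Trim12a. Trim30b, Trim30c and Trim6 had none. The split of reads between Trim34a and Trim34b is thus the least certain of the cluster.

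Of the 16 members listed as regulators of nucleic acid sensing and interferon, 15 were tested, 5 rose and none fell. Over all genes tested 1.36% rose and 0.249% fell. Trim25 (ENSMUSG00000000275, chromosome 11 from 88999376 to 89020293), the ligase that modifies RIG-I, stood at 29.2, 34.2 and 28.0 CPM in treated 1, 2 and 3 and at 8.31, 9.63 and 9.93 CPM in controls. The 3 treated libraries were close together and well above the controls. It rose 3.28-fold (log2 fold change 1.72 ± 0.12, 95% interval 1.43 to 2.00, edgeR adjusted p = 0.000459).

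Trim21 (ENSMUSG00000030966, chromosome 7 from 102557921 to 102565486), a cytosolic antibody receptor that marks antibody-coated virus for destruction, lies outside the cluster on the same chromosome. It stood at 34.4, 46.3 and 36.2 CPM in treated and at 8.62, 11.01 and 13.1 CPM in control libraries. Treated 2 was the highest, and treated 1 rather than treated 3 was the lowest of the treated. It rose 3.57-fold (log2 fold change 1.84 ± 0.18, edgeR adjusted p = 0.00216).

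Trim56 (ENSMUSG00000043279, chromosome 5 from 137105644 to 137116209), which has been reported to act on STING and cGAS, stood at 100.3, 104.3 and 92.9 CPM in treated and at 53.2, 50.7 and 38.7 CPM in control libraries. Its rise was 2.09-fold (log2 fold change 1.06 ± 0.12, 95% interval 0.783 to 1.34). Trim26 (ENSMUSG00000024457, chromosome 17 from 36837134 to 36859398), described to act on IRF3, had the smallest rise of the 10. It stood at 87.6, 87.7 and 77.5 CPM against 44.7, 46.6 and 47.1 CPM (1.83-fold, log2 fold change 0.87 ± 0.07, 95% interval 0.703 to 1.04, edgeR adjusted p = 0.000887). Both were already above 35 CPM in every control, and their treated levels were close to each other in FPKM, at 9.43 ± 0.449 for Trim56 and 10.8 ± 0.688 for Trim26 (SD, n = 3).

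Trim14 (ENSMUSG00000039853, chromosome 4 from 46493781 to 46536122), which lacks a RING finger and has been described to shield cGAS from degradation, stood at 3.24, 5.996 and 4.11 CPM in treated and at 1.67, 1.43 and 1.63 CPM in control libraries. Its log2 fold change was 1.496 ± 0.27 (95% interval 0.871 to 2.12, edgeR adjusted p = 0.0405). The call was lost without treated 2, treated 3 or any 1 of the controls (edgeR adjusted p 0.0592 to 0.222) and kept without treated 1 (0.0274). Trim14 overlaps Nans on the opposite strand, with a mean count of 5960 against 194 for Trim14. Whether counting used strand is not given in the sources used here, and for Nans the log2 fold change was -0.07 (edgeR adjusted p = 0.65).

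The windows of Trim21 and Trim26 held 2 overlapping matches each to the pair of GAAA repeats, on the gene's strand in Trim21 and on the other strand in Trim26. They are shown as the members outside the cluster that rose and held the letters.
Trim21, chr7:102565433-102565494, minus strand: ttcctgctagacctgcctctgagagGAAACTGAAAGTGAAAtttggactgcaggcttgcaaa
Trim26, chr17:36836961-36837026, plus strand: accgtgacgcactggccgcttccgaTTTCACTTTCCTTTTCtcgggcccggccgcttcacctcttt
The first match of Trim21 began 13 bases after the gene start, and that of Trim26 160 bases before it. The windows of Trim25 and Trim56 did not hold these letters, and Trim14 had no window in the table.

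The 10 other members of the list that were tested did not pass the threshold. Trim35, the most abundant of them, had 119.0, 117.9 and 114.5 CPM in treated and 140.6, 133.3 and 139.0 CPM in control libraries, lower in each treated library (log2 fold change -0.23 ± 0.06, edgeR adjusted p = 0.105). Trim8, described as a positive regulator of inflammatory signalling, had 41.7, 40.6 and 33.4 CPM against 29.7, 30.9 and 28.8 CPM (0.37 ± 0.10, edgeR adjusted p = 0.127), and passed without treated 3 (0.0491, 0.0248 to 0.343 over its alternatives). Trim65, which acts on the RNA sensor MDA5, showed 0.29 ± 0.19 on the log2 scale with overlapping groups (95% interval -0.14 to 0.727). Trim41 showed 0.06 ± 0.07 (95% interval -0.0928 to 0.222).

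**Figure D4:**
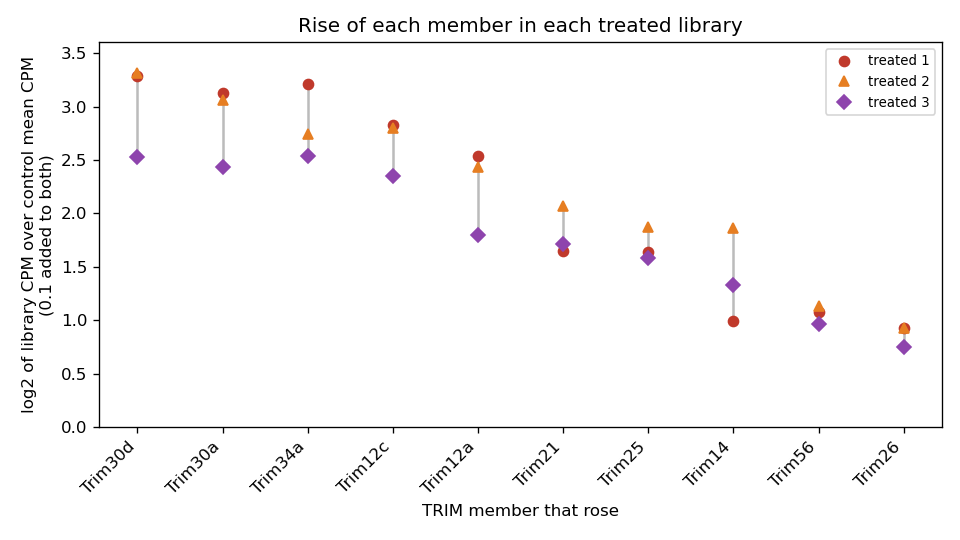
Log2 ratio of the CPM in each treated library to the control mean, with 0.1 CPM added to both (vertical axis), for the 10 members that rose (horizontal axis). Treated 3 (diamonds) is the lowest of the 3 in 8 members. Every point lies above 0, which is fixed in part by the members having been called.

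Treated 3, the library apart on the first principal component, was the lowest treated library for 8 of the 10 members that rose, and treated 1 for the other two, Trim21 and Trim14. Treated 3 was above all controls for each of the 10, a separation fixed in part by their having been called with treated 3 included. Without treated 3, 11 members rose, among them 9 of the 10, with Trim30c and Trim8 added and Trim14 lost. Without treated 1, 10 rose, the same 10. In treated 3 Trim30a stood at 86.5 CPM against at most 21.4 CPM in controls. The summed neutrophil markers there, at 5.59 CPM, lay inside the control range of 2.81 to 6.24 CPM. Of the 7 neutrophil markers tested, 3 were above all controls in every treated library, where 12% of all genes tested were. Of these 3, Retnlg passed the filter through the treated group alone, which favours such a separation. All 7 had a positive log2 fold change, and none passed the threshold. Macrophage markers were lowest in treated 3 as well, at 67.5 CPM against 120 to 160.4 CPM in controls and 227.4 and 135.9 CPM in treated 1 and 2. Of 10 endothelial markers 5 rose, where 1.36% of all genes tested did so. The sum of the 10 was higher in each treated library. Eng, which did not pass the threshold, made up 262.2 to 271.4 CPM of it in treated and 228.3 to 238.4 CPM in control libraries. Of the 10, 9 had a positive log2 fold change, and Vwf had a negative one (-0.49). The part of these cell type markers in the result was not tested, and none of the markers was at 0 in all libraries.

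Trim2 (ENSMUSG00000027993, chromosome 3 from 84160439 to 84305446), a ligase best known in neurons for acting on neurofilament light chain, was the 1 member that fell. It stood at 20.9, 22.6 and 22.5 CPM in treated and at 33.6, 31.0 and 32.1 CPM in control libraries. The groups were well separated. The log2 fold change was -0.55 ± 0.08 (95% interval -0.741 to -0.367, edgeR adjusted p = 0.018). The call was lost without treated 2 or any 1 of the controls (edgeR adjusted p 0.0644 to 0.109). One of the RefSeq starts of Trim2 had the pair of GAAA repeats, on the other strand and beginning 28 bases after the start.

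The 3 other members with NHL repeats did not pass the threshold. Trim32, reported to act on STING, had 38.8, 41.8 and 38.2 CPM in treated and 40.8, 35.0 and 36.9 CPM in control libraries (log2 fold change 0.08 ± 0.08, 95% interval -0.113 to 0.263). None of the 4 members of the TIF1 group of transcription co-regulators (Trim24, Trim28, Trim33 and Trim66) passed it. Trim28 had 308.4, 302.6 and 308.2 CPM against 304.5, 326.3 and 339.2 CPM (-0.08 ± 0.06, 95% interval -0.214 to 0.0592, edgeR adjusted p = 0.586). Trim24 was lower in each treated library (-0.19 ± 0.08, edgeR adjusted p = 0.297).

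Among all members that did not pass the threshold, the 17 with at least 20 CPM in controls had log2 fold changes from -0.23 to 0.37. The widest ends of their 95% intervals were -0.394 and 0.598. For these members a rise of the size seen in Trim25 lay outside the interval.

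None of the members in the muscle, epithelial, erythroid, or microtubule-binding and neuronal role lists passed the threshold. Trim2, which fell, was listed with the NHL-repeat members. Trim63 encodes MuRF1, a ligase of muscle wasting, and was among the more abundant members, at 14.5 ± 0.248 FPKM in treated and 14.4 ± 1.44 FPKM in control tumours (SD, n = 3). It stood at 47.1, 46.9 and 45.8 CPM in treated and at 48.7, 48.9 and 40.7 CPM in control libraries (log2 fold change 0.02 ± 0.08, 95% interval -0.181 to 0.212). The 10 muscle markers summed to 165.9, 30.1 and 3.03 CPM in the same treated libraries and to 77.7, 61.6 and 30.6 CPM in controls. Trim63 was thus level across libraries in which muscle transcripts were not. Trim72, a membrane repair protein of muscle, had 53, 16 and 5 counts in treated and 48, 39 and 53 in control libraries (-1.001 ± 0.75, edgeR adjusted p = 0.575). The treated libraries ranked in the same order by Trim72 as by the muscle markers, and the controls did not: control 3 had the highest Trim72 level, at 0.93 CPM, and the lowest muscle marker sum.

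Trim29, which is known in stratified epithelium, had 223 counts in treated 1 and 0 in each other library and was not tested. The skin markers Krt5 and Krt14 stood at 28.2 and 41.9 CPM in treated 1 and at no more than 0.0903 CPM in any other library. Trim62, placed in the same list, had 26.6, 25.7 and 24.8 CPM in treated and 19.0, 20.9 and 20.7 CPM in control libraries (log2 fold change 0.35 ± 0.09, edgeR adjusted p = 0.11). Its level in treated 1 was close to that in treated 2 and 3.

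Trim10, known from red blood cell precursors, had 2.29, 2.31 and 2.73 CPM in treated and 2.58, 3.49 and 3.999 CPM in control libraries (log2 fold change -0.46 ± 0.23, edgeR adjusted p = 0.391). The 7 red blood cell markers in the table were higher in each treated library, at 1472, 486.4 and 262.5 CPM in treated and 98.1, 168.2 and 249.8 CPM in controls. Of the 4 microtubule-binding members Trim36 had the smallest p (-0.48 ± 0.38, edgeR adjusted p = 0.596), and Trim46 the highest level, at 0.622 ± 0.128 FPKM in treated and 0.518 ± 0.196 FPKM in control tumours (SD, n = 3).

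**Figure D5:**
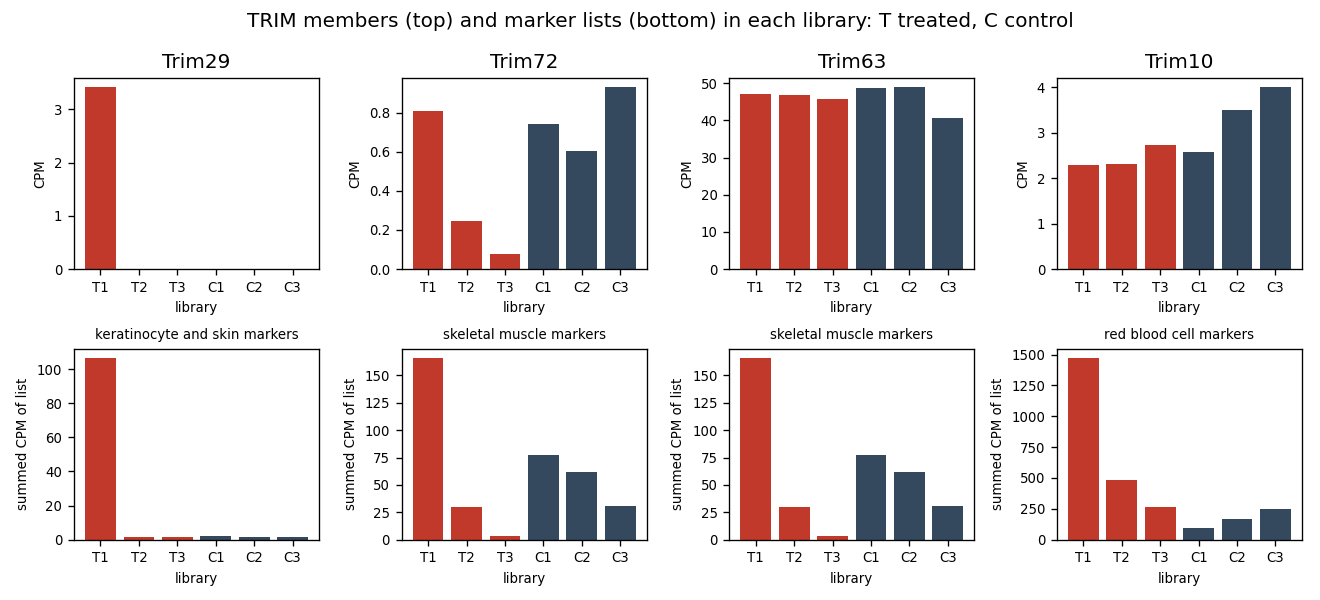
CPM of 4 members (top row) above the summed CPM of a marker list (bottom row) in treated (red, T1 to T3) and control libraries (dark, C1 to C3), on linear vertical axes from 0. Trim29 and the skin markers are high in treated 1 alone, while Trim63 stays between 40.7 and 48.9 CPM.

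In the group of members without a role list 9 of 10 were tested and none passed the threshold. Trim37, a ligase that limits centrosome formation, was lower in each treated library, at 89.2, 95.2 and 98.1 CPM against 102.8, 111.5 and 116.6 CPM (log2 fold change -0.23 ± 0.07, edgeR adjusted p = 0.184). Trim45 (0.43 ± 0.22) and Trim68 (0.43 ± 0.23) came next by p, with overlapping groups.

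Of 6 genes of TRIM or closely related proteins that carry other symbols, 2 rose and none fell. The shares over all genes tested were 1.36% and 0.249%. Pml, the organiser of nuclear bodies also known as TRIM19, stood at 142.6, 149.7 and 123.6 CPM in treated and at 48.4, 52.7 and 49.0 CPM in control libraries (log2 fold change 1.47 ± 0.09, edgeR adjusted p = 0.000305). Rnf135 encodes Riplet, a RING and SPRY protein that modifies RIG-I. It had 27.0, 23.7 and 17.3 CPM against 12.3, 11.5 and 12.6 CPM (0.91 ± 0.16, edgeR adjusted p = 0.0409). Mefv, the gene of pyrin, showed 1.54 ± 0.66 on the log2 scale with overlapping groups (edgeR adjusted p = 0.307).

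Of 26 partners, substrates and cofactors of the antiviral ligases, 8 rose and none fell, where 1.36% and 0.249% of all genes did so. The median log2 fold change of the 26 was 0.219. The 3 with the smallest p were Ddx58, which encodes RIG-I (3.01 ± 0.10), Usp18 (4.20 ± 0.24) and Isg15 (3.37 ± 0.20), the last also the most abundant. Others that rose, named after their values were seen, were Ifih1, the gene of MDA5 (2.21 ± 0.20, edgeR adjusted p = 0.00161), and Zc3hav1, a zinc finger antiviral protein for which TRIM25 is a cofactor (0.78 ± 0.11, edgeR adjusted p = 0.0143). Ube2n, a ubiquitin-conjugating enzyme used by several TRIM ligases, showed -0.16 ± 0.08 on the log2 scale (edgeR adjusted p = 0.412), also named after its value was seen. In a list of 30 interferon-stimulated genes 29 rose, where 1.36% of all genes did so. Log2 fold changes over this list ran from 1.011 to 4.20, with a median of 3.007. The median of the 10 TRIM members that rose was 2.079, a value fixed in part by their having been called. Rtp4 (2.95 ± 0.16) and Dhx58 (3.26 ± 0.18) followed Ddx58 by p, and Ifitm3 had the highest FPKM (1.17 ± 0.18). The 2 lists share Ddx58, Usp18, Isg15, Irf7, Ifih1 and Herc6, so they are not independent.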

How the data were processed

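The authors deposited 1 table of 28368 genes with a raw count and an FPKM value per gene and library, per the file headers. fastp, StringTie and edgeR are named, without version or role, in the submitters' processing notes. For the aligner, the build and the use of strand: not given in the sources used here. GENCODE M21 (GRCm38) holds 99.7% of the table's identifiers, and 47 of the 56 members have the same start and end there, so coordinates are printed as in the table and RefSeq windows as GRCm38.p6. The FPKM deposited by the authors were used for levels between genes and in 1 alternative. Per library, 98.8 to 99.7% of 13090 genes with at least 50 counts in every library had an FPKM to count ratio within 1% of a constant for the gene.

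Counts were fitted in R 4.3.3 with edgeR 4.0.16 (TMM factors 0.974 to 1.014, filterByExpr with minimum count 10 and minimum total 15, glmQLFit and glmQLFTest, group term alone, 6 libraries, two-sided). The SE is the size of the log2 fold change divided by the root of F. limma 3.58.1 and DESeq2 1.42.0 served as alternatives. The fit was tested on simulated data. Precision is limited by 3 libraries a group and, below about 1 CPM, by counts.

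The members and lists were chosen with earlier results of these data known. Named are all members called, in the 2 antiviral lists the 3 smallest p and 2 highest FPKM among the others, in each other role list the smallest p and highest FPKM, the 3 smallest p outside role lists, members whose call changed, and the leading genes of the other lists. Marker lists of cell types were given as summed CPM.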

Additional observations from a re-analysis of the deposited data

How the results depend on the processing

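The number of members that rose was 9 to 15 under the alternatives that keep all libraries and 9 to 11 when any 1 library was left out. Of the 10, 9 were called under all 14 alternatives, with edgeR, limma or DESeq2 adjusted p of at most 0.0375, and Trim14 in 5 of the 14. It missed the threshold by limma-voom (0.0769), without the filter (0.0539), with the replicate block (0.134) and on log2(FPKM + 0.1) (0.074). The number that fell was 1 or 0 with a library left out, 2 by DESeq2 (Trim2 and Trim35), and 0 with the replicate block and on log2(FPKM + 0.1), where Trim2 had adjusted p of 0.094 and 0.164. DESeq2 also called Trim30b, Trim30c, Trim5, Trim62 and Trim8 as higher, and limma-voom with sample quality weights called Trim5. Over all genes, DESeq2 called 754 as higher and 367 as lower against 246 and 45 by edgeR, limma-voom with quality weights 601 and 191, and the replicate block 123 and 14. On log2(FPKM + 0.1) 24 were lower. With a library left out, 94 to 308 were higher and 3 to 39 lower. Whether the replicate numbers pair the samples is not known. Deviations of same-numbered libraries correlated at 0.0855, -0.164 and -0.107, and 3 libraries a group are too few to settle it. The block therefore shows only what a term for the number does. Of 711 values for members under the alternatives, 15 lost a call, 9 gained one and none changed direction with a call. Depth limits members below about 1 CPM, where intervals spanned several log2 units.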

Other observations

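A second sequence, TTCNNNGAA (its own complement, the half-sites bound by STAT dimers), was found in the RefSeq windows of 4 of 42 members: Trim15, Trim30c, Trim45 and Trim46. That is 9.52%, against 9.55% of all genes with a window and 10.8% of the genes that rose, and it was in none of the 9 windows of members that rose. No match says only that these letters are not in that window.

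Some members share their span with a more abundant gene. Trim46 overlaps Krtcap2 on the opposite strand (mean counts 158 and 3450), Trim7 overlaps Gm12184 on the opposite strand (264 and 3600) and Trim17 overlaps H2aw on the same strand (27.5 and 718). Trim17 had 79 counts in treated 1 and 12 to 31 in each other library. Of its stretches of 150 bases, 15% also occur in transcripts of another gene. None of these 3 members passed the threshold.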
